A study of Mus musculus with 34 samples.

Results

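The genes described here are 43 genes of fatty acid uptake, activation, oxidation and ketone metabolism, among 51368 genes in the table. They were taken by name from a fixed list, and all 43 were found. By role, 8 handle uptake and binding, 4 activate fatty acids, 2 are thioesterases, 5 belong to the carnitine shuttle, 11 to mitochondrial and 5 to peroxisomal β-oxidation, 3 to electron transfer and 3 to ketone metabolism, and 2 are counted as regulators (Ppara and Ucp3).

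Fatty acids enter cells through membrane proteins such as Cd36, are carried in the cytosol by binding proteins, and are joined to coenzyme A by acyl-CoA synthetases. The carnitine shuttle moves long acyl chains into mitochondria, where β-oxidation shortens them step by step, while peroxisomes start on very long chains. The liver turns much of the resulting acetyl-CoA into ketone bodies, which the heart takes up and burns beside fatty acids.

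The animal was a wild-type C57BL/6J mouse of 12 weeks, given as female in one label and male in another, and the liver RNA came from 1 extraction, prepared in many ways. Groups were 9 libraries with polyA selection (TruSeq Stranded mRNA), 9 with ribosomal RNA (rRNA) pull-down (TruSeq Stranded Total RNA), 9 with rRNA digestion (the Illumina Ribo-Zero Plus ligation kit), 3 unselected liver libraries in batch 1, 3 in batch 2, and 1 unselected heart library in batch 1. All used adapters with unique molecular identifiers. Each 9 held 1 library for every pairing of slow, medium or fast PCR temperature ramp with short, medium or long fragments. PolyA libraries belonged to batch 1, and pull-down and digestion to batch 2. Unselected libraries had slow ramps, medium fragments and 20 ng of input RNA, against 200 ng in the selected ones, so the effects of selection, kit and input amount cannot be told apart. No group held more than 1 animal: p-values measured the spread between library preparations, and no statement reaches beyond this RNA.

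Total counts were 19.98 to 41.4 M in the selected libraries, except for 1.13 M in the pull-down library with slow ramp and long fragments. Unselected liver libraries had 19.87 to 21.7 M counts and the heart library 22.29 M. Ribosomal RNA genes and Lars2 together took 84.8% to 85.7% of the unselected liver counts, 80.6% in heart, 14.2% to 24.5% in pull-down, 0.363% to 1.12% in digestion and 0.214% to 0.406% in polyA libraries. The labelled organs held their defining markers: hepatocyte markers summed to 78909 CPM outside rRNA in liver and 297 in heart, and cardiomyocyte markers to 50957 in heart and at most 1.66 in liver.

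Levels below are normalised CPM (counts per M of library size), scaled by edgeR's trimmed mean of M-values (TMM), so each change is relative to the typical gene. A gene was called at an adjusted p under 0.05 by edgeR's quasi-likelihood test, and in heart against liver also at a change of at least 2-fold. Levels in the heart comparison were multiplied by 4.052, so that the liver libraries it shares with the method comparisons read alike in both. Method comparisons were adjusted for ramp and fragment length, so their fold changes can differ from the ratio of group means.

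The first sequences lie just upstream of Fabp1 and Fabp3, 198 and 107 bases, shown because these fatty acid binding proteins had opposite organ patterns. They come from RefSeq on GRCm38.p6, at chr6:71199629-71199826 and chr4:130308488-130308594, both on the plus strand. RefSeq starts these genes at 71199879 and 130308738 and GENCODE M21 at 71199827 and 130308595, and the stretches end before the earlier start. Capitals mark a match to AGGNCANAGGNCA or its reverse complement TGNCCTNTGNCCT, a direct repeat of the kind that PPARα with RXR binds.

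Fabp1: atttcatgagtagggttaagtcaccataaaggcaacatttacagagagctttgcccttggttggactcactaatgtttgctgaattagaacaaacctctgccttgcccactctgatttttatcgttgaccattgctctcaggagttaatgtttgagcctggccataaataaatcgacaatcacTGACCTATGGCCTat
Fabp3: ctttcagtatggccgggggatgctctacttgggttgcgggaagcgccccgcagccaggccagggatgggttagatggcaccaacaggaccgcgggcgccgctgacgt

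The match lies on the reverse strand, 67 to 55 bases before the RefSeq start of Fabp1 and 15 to 3 before the GENCODE one. It was the only one among 39 RefSeq windows of 300 bases that covered 35 of the 43 genes, and 125 of 32851 windows of all genes (0.381%) held one. A match in these letters is a description and does not show binding.

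The unselected libraries of batch 1 compared heart with liver. Of the 43 genes, 15 were higher in heart, 15 lower and 13 were not called, and by adjusted p alone, without the 2-fold limit, 25 were higher and 17 lower. Fabp3 and Ucp3, among those higher, passed the filter on low counts only through the heart library. Of 12828 genes tested, 25.5% were called higher and 22.7% lower, and by adjusted p alone 8933 were called, 51% of them higher. Median log2 fold change was 0.55 over the members and 0.02 over all genes. All 5 peroxisomal genes were lower in heart, 5 of the 11 mitochondrial genes were higher and none lower. Heart has a single library, so its own spread is unknown and is assumed to equal that of the 3 liver libraries.

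Fabp1, the liver fatty acid binding protein, read 1648, 1709 and 1720 CPM in liver and 4.15 in heart. Heart was lower by a log2 fold change of -8.66, which rests on 30 counts in heart. Fabp3, the heart form, held 8239 counts in the heart library (1141 CPM) and 1 count in all 3 liver libraries together. The 2 forms thus stood at opposite ends, with no overlap between organs. That single liver count put the heart to liver ratio of Fabp3 at 16130, with a 95% counting interval from 2894 to 637200. Fabp4, the adipocyte and endothelial form, read 3.91, 1.33 and 2.72 in liver and 169 in heart (log2 fold change 5.96). Per kilobase of transcript, the heart levels were 1386 for Fabp3, 189 for Fabp4 and 7.51 for Fabp1, and the liver level of Fabp1 was 3061 ± 70.2 (SD, n = 3).

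**Figure D1:**
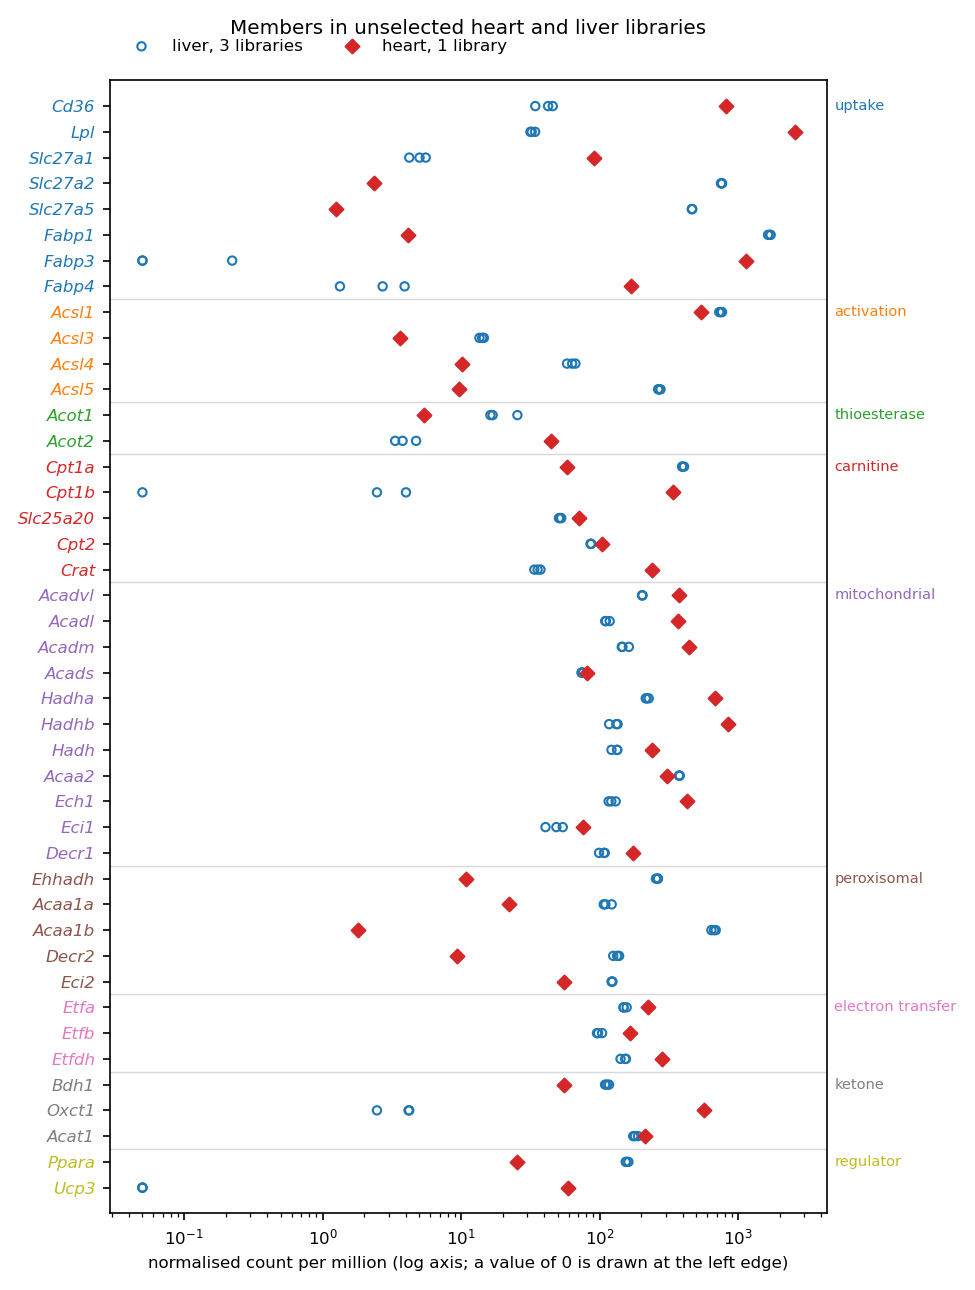
Normalised CPM on a log axis for each of the 43 genes, in 3 unselected liver libraries (open circles) and 1 heart library (red diamonds), ordered by role. Fabp1 fell from about 1700 CPM in liver to 4.15 in heart, while Fabp3 and Ucp3 were at or near 0 in liver.

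Lpl, the lipase that frees fatty acids from lipoproteins, read 31.7, 34.3 and 32.4 in liver and 2563 in heart (log2 fold change 6.29). Cd36, a fatty acid translocase, read 34.4, 42.5 and 46.0 in liver and 815 in heart (4.32). Both were far above every liver library. The fatty acid transport proteins divided: Slc27a1, the muscle form, was higher in heart (90.7 against 5.56, 4.23 and 5.01), and Slc27a2 and Slc27a5, the hepatic forms, were lower, at 2.35 and 1.25 CPM in heart against liver means of 762 and 466.

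The lowest heart to liver ratios among the members sat near those of hepatocyte markers. The 8 hepatocyte markers read 0.298% to 0.420% of their liver level in heart, with a median of 0.371%. Fabp1 was at 0.246% (30 counts, 95% counting interval 0.166% to 0.351%), Slc27a2 at 0.309% (17 counts), Acaa1b at 0.269% (13 counts) and Slc27a5 at 0.268% (9 counts). The other members called lower in heart lay above the marker range, from 3.59% (Acsl5) to 48.8% (Bdh1). The part of hepatocyte RNA in these heart values was not tested. Endothelial markers summed to 825 CPM outside rRNA in heart and 189 to 208 in liver, and for Cd36, Lpl and Fabp4 the part of that difference was not tested. The adipocyte markers summed to 0.231 in heart and 0.692 to 2.91 in liver, and Adipoq, Plin1, Retn and Lep were at 0 in these libraries. In bulk RNA, fewer cells of a type and less RNA per cell cannot be told apart.

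Among acyl-CoA synthetases, Acsl1 was nearest between organs: 732, 767 and 753 CPM in liver and 536 in heart (log2 fold change -0.49, under the 2-fold limit). Acsl3, Acsl4 and Acsl5 were lower in heart, by log2 fold changes of -1.97, -2.63 and -4.80. Acsl5 read 268, 265 and 276 in liver and 9.69 in heart, outside the liver range.

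The thioesterases, which split acyl-CoA, went opposite ways. Acot1, cytosolic, read 25.5, 16.9 and 16.3 in liver and 5.40 in heart (log2 fold change -1.86), and Acot2, mitochondrial, read 4.73, 3.78 and 3.34 in liver and 45.0 in heart (3.50). Their coding sequences were 95.3% identical over 1236 aligned bases, with a longest identical run of 273 bases, so how the counting divided reads between them is uncertain.

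Carnitine palmitoyltransferase 1, the gate of the shuttle, differed by isoform. Cpt1a, the liver form, read 396, 408 and 395 in liver and 58.1 in heart (log2 fold change -2.78). Cpt1b, the muscle form, read 2.47, 4.0 and 0 in liver and 339 in heart (7.30 ± 0.17). Per kilobase, heart held 117 for Cpt1b against 13.5 for Cpt1a, and liver 0.745 for Cpt1b against 92.6 for Cpt1a. The order of the 2 isoforms was therefore opposite in the organs. Crat, which handles short acylcarnitines, was higher in heart (237 against 37.5, 33.8 and 35.7), and neither Slc25a20, the carrier, nor Cpt2 was called (log2 fold changes 0.45 and 0.27).

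Within mitochondrial β-oxidation, Hadhb, the β subunit of the trifunctional protein, changed most: 117, 132 and 135 in liver and 850 in heart (log2 fold change 2.73). Its partner Hadha rose by 1.64 (685 in heart against 220 ± 5.61, n = 3). Ech1, an auxiliary isomerase, rose by 1.79, and Acadl and Acadm, the long- and medium-chain dehydrogenases, by 1.71 and 1.54. Acadvl, Acads, Hadh, Acaa2, Eci1 and Decr1 were not called, at values from -0.30 to 0.89. Etfa, Etfb and Etfdh, which pass electrons from these dehydrogenases to ubiquinone, were not called at 0.55, 0.75 and 0.90. All of these except Acads had an adjusted p under 0.05 but a change under 2-fold.

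Peroxisomal genes were lower in heart throughout. Acaa1b, a peroxisomal thiolase, read 691, 672 and 642 in liver and 1.80 in heart (log2 fold change -8.52). Ehhadh, the bifunctional enzyme, fell by 4.57, Decr2, a dienoyl-CoA reductase, by 3.83, Acaa1a by 2.35 and Eci2 by 1.15. Acaa1a and Acaa1b share 96.5% of 1272 coding bases, with an identical run of 327 bases, so reads from these neighbours may be divided uncertainly. Their first 90 coding bases from GENCODE M21, with the 3 mismatches in capitals, show how few letters separate them.

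Acaa1a: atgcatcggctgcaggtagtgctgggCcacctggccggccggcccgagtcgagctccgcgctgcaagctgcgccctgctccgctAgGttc
Acaa1b: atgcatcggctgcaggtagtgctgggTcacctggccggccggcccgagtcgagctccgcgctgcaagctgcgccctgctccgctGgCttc

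Ketone genes also split. Oxct1, which starts ketone use outside the liver, read 2.47, 4.23 and 4.18 in liver and 571 in heart (log2 fold change 7.30). Its heart to liver ratio was 158.4, with a 95% counting interval from 120.2 to 213.1. Bdh1, which interconverts the 2 main ketone bodies, was lower in heart (55.2 against 113, 117 and 110, log2 fold change -1.03). Near the 2-fold limit, Bdh1 lost its call with library totals and with totals outside rRNA in place of TMM. Acat1, the mitochondrial acetoacetyl-CoA thiolase, was not called (0.24). Ppara, the nuclear receptor that drives oxidation genes, read 155, 162 and 157 in liver and 25.2 in heart (-2.64). Ucp3, a mitochondrial carrier of muscle, held 426 counts in heart (59.0 CPM) and 0 in all 3 liver libraries. Against a floor of 3 counts over the liver group, that was 278-fold higher. That floor leaves out the counting error of the heart library, and the 95% counting interval of the ratio, which includes it, starts at 225.1.

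DESeq2 and a fit with all 6 unselected liver libraries each called the same 30 genes in the same directions. Scaled to library totals, which shifts the median of all genes to 0.54, the split became 22 higher and 13 lower, and Bdh1 and Eci2 were no longer called.

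Of 74 other genes of fatty acid metabolism, 69 were tested in heart against liver, of which 15 were higher and 36 lower (median -1.94), beside 25.5% higher and 22.7% lower and a median of 0.02 over all genes. Pdk4, which restrains glucose oxidation, rose by 6.49 on the log2 scale, and Ppargc1a, a coactivator of oxidation genes, by 2.81. Acss1, a mitochondrial acetyl-CoA synthetase, held 1308 counts in heart and 2 in liver, a ratio of 1280 (95% counting interval 353.7 to 10580). Acsl6 held 69 counts in heart and 1 in liver, a ratio of 135.1 (23.45 to 5412). Acss1, Acsl6, Cpt1c and Slc25a29 passed the filter on low counts only through the heart library. Acsm1, Lipc, Cyp4a10 and Acot12 had the largest falls, with 2, 1, 6 and 2 counts in heart. Their heart levels were 0.136%, 0.236%, 0.315% and 0.371% of liver, beside the hepatocyte marker median of 0.371%.

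The 3 ways of dealing with rRNA were then compared with unselected liver RNA of the same batch. Here 41 genes were tested, since Fabp3 and Ucp3 were filtered for low counts. Scaled to library totals in place of TMM, the median of all genes was 2.67 for polyA, 2.31 for pull-down and 2.85 for digestion, and all 41 were higher in each, so directions below are relative to the typical gene. Counts outside rRNA and Lars2 that fell on the 43 genes were 1.84% ± 0.0146 in polyA libraries (SD, n = 9), 1.55% ± 0.0314 in pull-down, 1.13% ± 0.0140 in digestion, 1.33% ± 0.00601 in the unselected libraries of batch 1 and 1.32% ± 0.0037 of batch 2 (both n = 3). Fabp1 alone made up 19.8% of the members' counts in batch 1 unselected libraries, 5.23% after digestion, 29.2% with polyA selection and 25.9% after pull-down. Without Fabp1, the share was 1.06% in batch 2 unselected libraries, 1.07% in digestion, 1.15% in pull-down and 1.30% in polyA.

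PolyA selection gave higher relative levels for most of the genes: 31 of 41 were higher, 4 lower and 6 not called. The background was 25.6% higher and 24.8% lower of 15422 genes, and the medians were 0.46 for the members and 0.04 for all genes. All 11 mitochondrial, 5 of 5 peroxisomal and 3 of 3 electron transfer genes were higher.

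Fabp1 had the largest increase. Unselected libraries read 1649, 1709 and 1719 CPM, and the 9 polyA libraries had a lowest value of 3266, a median of 3598 and a highest of 4670. Every polyA library was above every unselected one, and the log2 fold change was 1.09 ± 0.07 (SE, edgeR adjusted p = 4.34e-14). Etfb, the β subunit of the electron transfer flavoprotein, went from 99.3 ± 4.55 to 200 ± 8.64 CPM (0.95). Fabp4, Ech1, Eci1, Bdh1, Acads and Acadm followed at 0.79, 0.78, 0.76, 0.74, 0.72 and 0.71.

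Ppara was lower with polyA selection, at 103 to 116 CPM against 155 to 162 unselected (log2 fold change -0.54). Acsl4, a synthetase that prefers arachidonate, was at 29.0 to 50.6 against 58.2 to 66.9 (-0.74), and Oxct1 at 1.5 to 2.19 against 2.47 to 4.23 (-0.85). These 3 had no overlap between groups. Cd36 fell by 0.43, with overlapping values of 23.2 to 42.6 and 34.4 to 45.9. Cd36 lost its call without the second or the third unselected library, Lpl without the first or the third, Fabp4 without the second and Hadhb without the first. Among the most abundant members, Acsl1 was not called (0.01), Slc27a2 rose by 0.41 and Acaa1b by 0.70.

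**Figure D2:**
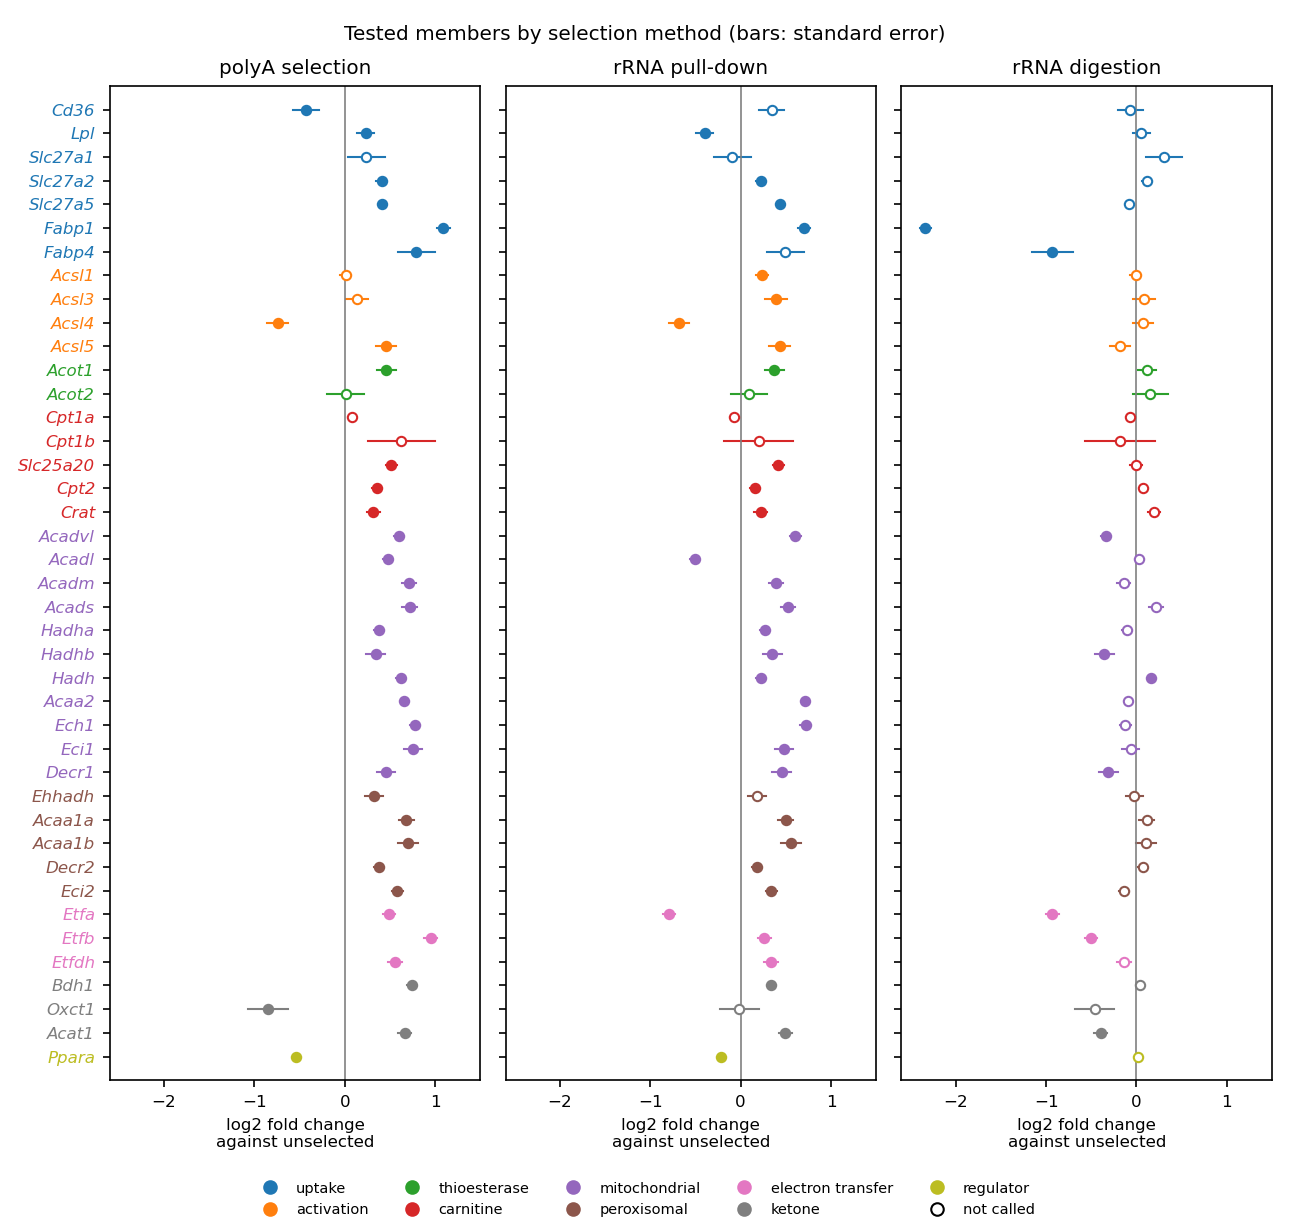
Log2 fold change with standard error (bars) of the 41 tested genes, 1 panel a method (polyA, pull-down, digestion), against unselected liver RNA of the same batch, coloured by role, filled where called. The polyA points lie mostly right of 0, and Fabp1 lies at 1.09, 0.70 and -2.34 in the 3 panels.

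Pull-down raised 28 genes and lowered 5, with 8 not called, against a background of 17.5% higher and 15.3% lower. Members had a median of 0.34 and all genes 0.06. Fabp1 read 2357 at lowest, 2654 at the median and 3930 at highest, against 1637, 1643 and 1716 unselected, with no overlap and a log2 fold change of 0.70. Ech1 rose by 0.72, Acaa2, a mitochondrial thiolase, by 0.71, and Acadvl, the very-long-chain dehydrogenase, by 0.61.

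Etfa and Acadl stood against this direction. Etfa, the α subunit of the flavoprotein, had 153, 154 and 159 CPM unselected and 70.3 to 97.9 after pull-down, with a median of 87.3 (log2 fold change -0.80 ± 0.07 SE). Acadl had 106, 109 and 113 unselected and 60.5 to 79.5 after pull-down (-0.51). Neither overlapped. Etfb, the other subunit of the flavoprotein, and Acadm, the medium-chain dehydrogenase, were higher (0.26 and 0.39). Fitted on pull-down and unselected libraries alone, both lost their call, and Etfb also lost it with totals outside rRNA. Acsl4, Lpl and Ppara were also lower, at -0.68, -0.40 and -0.21, and Ppara lost its call in the fit of these groups alone.

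The number of genes called in pull-down depended on the fit and the scaling. Fitted on pull-down and unselected libraries alone, 14 genes were called, 10 higher and 4 lower, and 31 (26 higher, 5 lower) with the shallow library left out as well, a fit chosen after seeing the data. Over the whole table, the genes called were 5052 with all liver libraries, 2809 with these groups alone and 4545 without the shallow library as well. With totals outside rRNA in place of TMM, which moves the median of all genes to -0.12, 21 were called, 15 higher and 6 lower.

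With digestion, 1 of the 41 genes was higher, 8 were lower and 32 were not called, against a background of 7.08% higher and 7.64% lower. Medians were -0.07 for the members and 0.04 for all genes. Fabp1 read 1637, 1643 and 1716 unselected and 283, 309 and 485 as the lowest, median and highest of 9 digestion libraries. All 9 were below, by a log2 fold change of -2.34 ± 0.07 (SE, edgeR adjusted p = 2.34e-22). Digestion was therefore opposite in direction to polyA selection and pull-down for this gene.

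Etfa read 73.7 to 92.9 after digestion (-0.93) against the same 153 to 159, a decrease in both rRNA depletion methods. Fabp4 fell by 0.93, with low levels of 1.22 to 1.97 against 2.09 to 3.54. Etfb fell by 0.50, Acat1 by 0.40, Hadhb by 0.36, Acadvl by 0.34 and Decr1 by 0.31, and none of these 5 overlapped. Hadh rose by 0.16. Decr1 and Hadhb lost their calls when any 1 of the 3 unselected libraries was left out, Hadh without replicate 2 or 3, and Fabp4 without replicate 2.

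The number called rose to 16 with DESeq2 (0 higher, 16 lower), to 14 without the shallow pull-down library (3 higher, 11 lower) and to 18 when only digestion and unselected libraries were fitted (2 higher, 16 lower). Over the whole table, 2271 genes were called at first and 2405, 2718 and 3269 in these 3 fits. Totals outside rRNA gave 5 higher and 6 lower, with the median of all genes moved to 0.13. Of 2980 genes called over the whole table in that fit, 71.9% were higher.

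**Figure D3:**
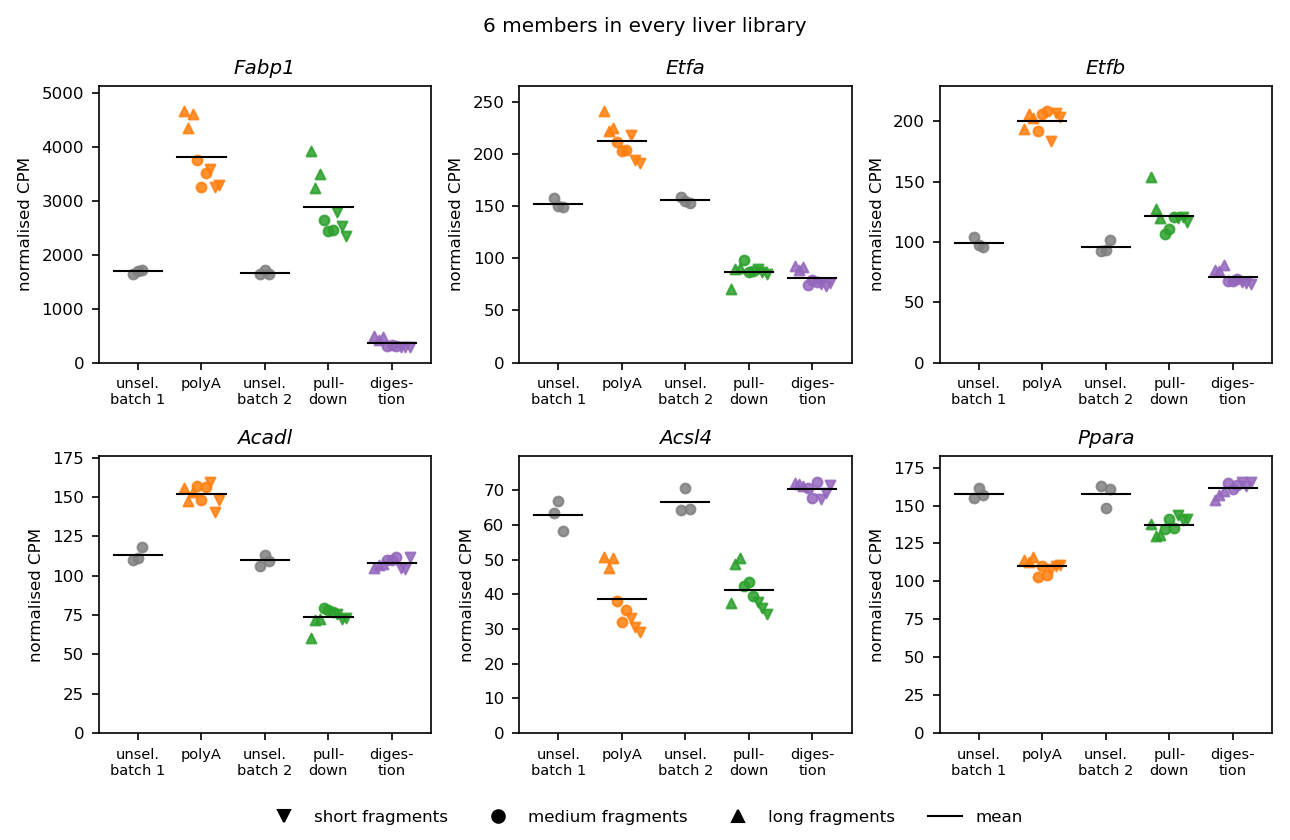
Normalised CPM of Fabp1, Etfa, Etfb, Acadl, Acsl4 and Ppara in each of the 33 liver libraries, by group on the x axis, with symbols for fragment length and a line at each mean. Fabp1 lies lowest in digestion (283 to 485), Etfa is low in pull-down and digestion, and Acadl is low in pull-down.

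The 2 depletion methods shared batch 2 and were compared directly. They came with different kits, so the effects of method and kit cannot be told apart. Relative to pull-down, digestion was lower for 32 genes, higher for 5 and not called for 4, and all genes were 34.7% higher and 36% lower. Fabp1 had a log2 fold change of -3.04 ± 0.04 (SE), Fabp4 of -1.43, Acadvl of -0.94, Acat1 of -0.89, Ech1 of -0.84 and Acaa2 of -0.81. Acsl4 was higher (0.76; 67.5 to 72.5 CPM against 34.4 to 50.4), as were Acadl (0.54; 104 to 112 against 60.5 to 79.5), Lpl (0.45), Slc27a1 (0.40) and Ppara (0.23), each with no overlap. That split depended on scaling: totals outside rRNA gave 13 higher and 20 lower, and library totals 24 higher and 9 lower. The median of all genes was then 0.26 and 0.55, and 73.7% and 90.3% of all genes called were higher.

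PolyA selection against digestion gave 33 higher, 6 lower and 2 not called (background 38.4% higher, 42.2% lower). Fabp1 differed by 3.45, Fabp4 by 1.63, Etfb by 1.51, Etfa by 1.39, Acat1 by 1.04, Ech1 by 1.02 and Acadvl by 1.01. Acsl4, Ppara, Cd36, Oxct1, Acot2 and Slc27a1 were lower, at -0.90, -0.55, -0.49, -0.36, -0.27 and -0.19. The methods also differ in batch and in kit. The difference of their differences from unselected RNA called 30 higher and 2 lower, and Cd36, Oxct1, Acot2 and Slc27a1 lost their call there. Over the whole table it called 6496 genes, 45.7% of them higher. With totals outside rRNA, 29 were higher and 10 lower.

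Short transcripts led the polyA increases. The tested genes were divided at 2000 bases of principal transcript, a boundary chosen after values were seen: all 14 shorter genes were higher in polyA libraries (median 0.69), and 17 of the 27 longer ones were higher and 4 lower (median 0.35). Over all coding genes, 54.5% of 3622 shorter ones were higher and 4.56% lower (median 0.52), and 18.4% of 9771 longer ones were higher and 31.1% lower (median -0.12). Across the 41 genes, Pearson's r between log2 length and the log2 fold change was -0.67 (Spearman's rho -0.75), against -0.36 (rho -0.59) over 13393 coding genes. Without Fabp1, the shortest at 553 bases, r was -0.64. Pull-down gave -0.37 (rho -0.46), and -0.26 (rho -0.42) over coding genes. Digestion gave 0.57, or 0.38 without Fabp1, but rho was 0.21, and over coding genes r was 0.02 and rho 0.09. These points share libraries and are a description across genes, which are not independent.

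**Figure D4:**
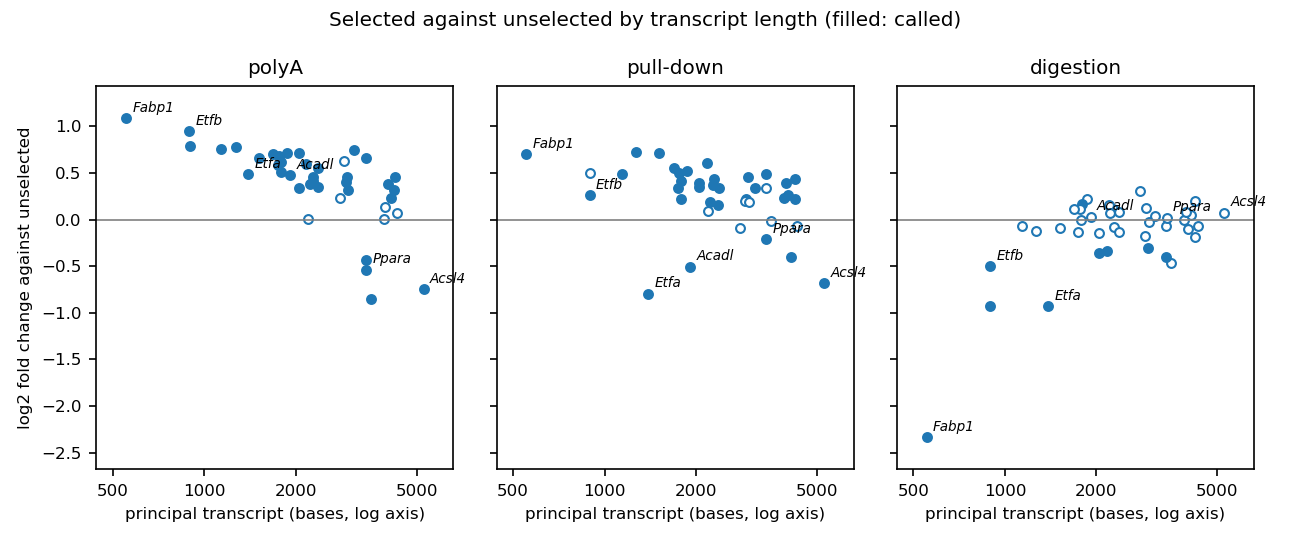
Log2 fold change of each tested gene against unselected RNA by length of its principal transcript (log axis, bases) in 3 methods, filled where called. Fabp1, shortest at 553 bases, is highest with polyA selection and lowest with digestion.

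Other genes of fatty acid metabolism were counted the same way, against the shares of all genes given above. Of 70 tested, 44 were higher and 6 lower with polyA selection (71.4% called), 32 and 10 with pull-down (60%), and 5 and 12 with digestion (24.3%). Among the 41 members, 85.4%, 80.5% and 22% were called. The difference between the lists was not tested. The largest polyA changes were Fabp5 (0.99) and Fabp2 (0.92) upward and Ppargc1b (-1.28) and Cpt1c (-1.26) downward. Acot4 and Acsf2 fell by 1.23 each in pull-down, and Fgf21 and Mcat rose by 0.88 and 0.69. In digestion Acot13 and Gpihbp1 fell by 0.71 and 0.53, and Acsf2 and Nudt19 rose by 0.42 and 0.32.

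Marker sums, in CPM outside rRNA, also differed between methods. For hepatocyte markers the polyA libraries had a mean sum of 99009, those of pull-down 85018 and those of digestion 74511, against 78909 and 78668 in the unselected libraries of batches 1 and 2. In the same order of groups, endothelial markers summed to 85.5, 229 and 174 against 200 and 193, and macrophage markers to 116, 249 and 160 against 181 in both. The erythroid list read 642, 631 and 126 against 509 and 458. Its low sum after digestion was one of globins: Hbb-bs went from 94.5 normalised CPM in batch 2 unselected libraries to 2.09 and Hba-a1 from 53.4 to 0.309, while Alas2, the erythroid enzyme of haem synthesis, read 66.5 and 71.6. All liver libraries came from 1 RNA extraction, and the part of these shifts in the genes above was not tested.

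Fragment length was compared within each method, with 3 long and 3 short libraries, 1 at each ramp. PolyA libraries changed most: 13 genes were higher in long fragments and 16 lower, against a background of 27.4% higher and 27.7% lower of 14629 genes.

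Cd36 read 41.4, 40.3 and 42.6 CPM with long fragments and 27.7, 24.6 and 23.2 with short (log2 fold change 0.71 ± 0.05 SE). Acsl4 read 50.6, 47.5 and 50.4 with long and 33.1, 30.5 and 29.0 with short (0.67). Slc27a1 went the other way, at 4.41, 4.95 and 3.89 with long and 6.58, 6.58 and 7.23 with short (-0.65). In none of the 3 did the groups overlap. Fabp4, Fabp1, Lpl, Hadhb, Acsl3 and Etfa were higher in long fragments (0.42, 0.41, 0.38, 0.30, 0.26 and 0.18). Acaa1b, Acaa1a, Crat, Acads, Eci1, Acot1 and Slc27a5 were lower (-0.45, -0.35, -0.33, -0.32, -0.32, -0.24 and -0.23). Without the medium-ramp libraries Acsl3, Etfdh, Decr1 and Slc25a20 lost their call, and Decr1 also without the fast-ramp ones. Scaled to library totals, 10 were higher and 22 lower. Among all 8215 genes called with that scaling, 42% were higher, against 49.7% of 8073 in the main fit.

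These genes ordered by GC content of the transcript. Cd36 (38.39%) and Acsl4 (39.03%) had the lowest GC of the 43, and Slc27a1 the third highest, after Acads and Acaa1a. Of the 21 tested genes at or below the median GC of 51.28%, 13 were higher in long fragments and 2 lower. Of the 20 above it, none was higher and 14 were lower. All coding genes divided at the same GC had 49.8% higher and 5.74% lower of the 7208 at or below it, and 2.49% higher and 56.9% lower of the 5892 above it. Pearson's r between GC and the change was -0.90 over 41 genes (rho -0.89) and -0.59 over 13100 coding genes (rho -0.82), given as a description across genes in the same libraries.

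The opening 120 coding bases of Acsl4 and Slc27a1, from GENCODE M21 with G and C in capitals, show the contrast in letters. The stretches hold 34.2% GC in Acsl4 and 67.5% in Slc27a1, whose whole coding sequences hold 43.1% and 61.2%. Cd36 holds 41.5% over its coding sequence but 50.0% in its opening 120 bases, which are not shown.

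Acsl4: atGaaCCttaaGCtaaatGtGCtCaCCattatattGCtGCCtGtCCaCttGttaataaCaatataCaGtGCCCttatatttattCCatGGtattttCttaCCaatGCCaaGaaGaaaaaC
Slc27a1: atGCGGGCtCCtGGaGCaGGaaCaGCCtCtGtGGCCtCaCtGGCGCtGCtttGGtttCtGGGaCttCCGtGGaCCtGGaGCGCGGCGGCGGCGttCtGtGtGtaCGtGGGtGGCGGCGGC

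In pull-down libraries, Fabp1 (0.48), Lpl (0.46) and Fabp4 (0.45) were higher with long fragments and none was lower, against a background of 4.42% higher and 1.66% lower of 14426 genes. The number called rested on the shallow library, which is 1 of the 3 long ones. Fabp1, Lpl and Fabp4 all lost their call without the medium-ramp libraries and without the fast-ramp ones, and Fabp4 also with DESeq2, with library totals, with totals outside rRNA and with no filter. Without the shallow library these 3 were still called, and a total of 8 genes were higher and 15 lower, against 19.2% higher and 18.2% lower of 14432 genes. Cd36 was then higher by 0.59, and read 68.4 and 72.7 with long fragments against 48.2 in the shallow library and 48.2, 46.8 and 48.6 with short. Acsl4 and Lpl were higher by 0.50 and 0.49, and Acaa1b and Slc27a1 lower, at -0.42 and -0.41. Across the 41 genes, r with GC was -0.63 with the shallow library and -0.83 without. Over coding genes it was -0.41 (rho -0.60) with that library and -0.47 (rho -0.69) without.

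In digestion libraries 8 genes were higher with long fragments and 5 lower, background 8.8% higher and 9.15% lower. Fabp1 had the largest change, at 484, 413 and 479 CPM with long, 300, 334 and 309 with medium and 295, 283 and 283 with short fragments (log2 fold change 0.67 ± 0.05 SE). Long libraries were above all others, and medium above short. Etfa (0.28), Etfb (0.24), Acsl3 (0.19), Eci1 (0.16), Acat1 (0.16), Ech1 (0.10) and Acadm (0.08) were higher. Acads (-0.16), Crat (-0.11), Acaa1a (-0.08), Ppara (-0.07) and Slc27a5 (-0.07) were lower. With DESeq2, 6 were higher and 2 lower, and Ppara, Crat, Acsl3, Acaa1a and Acadm lost their call. Over the whole table DESeq2 called 963 genes, 51.9% of them higher, against 2728 by edgeR. The same 5 lost it without the fast-ramp libraries, Acaa1a, Acadm and Slc27a5 without the medium ones, and Ppara, Crat, Slc27a5, Acsl3 and Acadm without the slow ones. Cd36 stayed between 41.8 and 44.6 CPM in all 9 digestion libraries and was not called. Across the 41 genes r with GC was -0.26 (rho -0.25), and over coding genes -0.08 (rho -0.19).

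**Figure D5:**
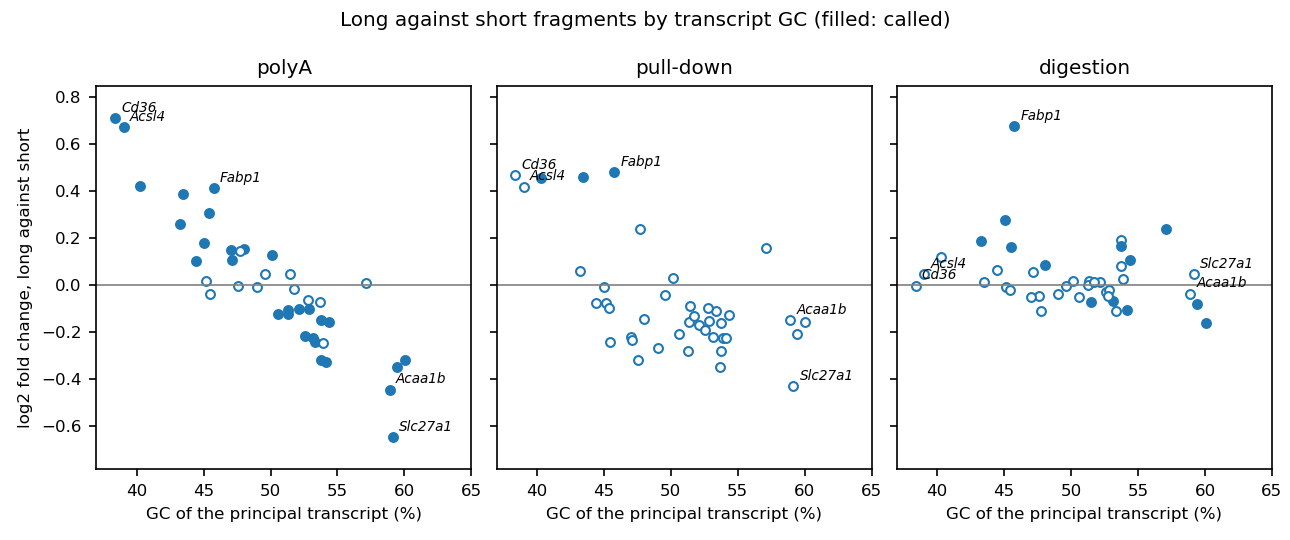
Log2 fold change of long against short fragments by GC of the principal transcript (percent) for the 41 tested genes, 1 panel a method, filled where called. Low-GC genes Cd36 and Acsl4 lie highest and Slc27a1 lowest with polyA selection, while in digestion Fabp1 lies highest at 0.67 and the other called genes between -0.16 and 0.28.

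The interaction of length with method was tested over all 27 selected libraries. By this test 15 of 41 genes differed between methods in their long against short change (31% of 15442 genes). It covers pull-down and digestion against polyA together, so the single differences below were not tested on their own. Without the shallow pull-down library 26 differed, with 6208 genes called over the whole table against 4787. Digestion minus polyA, the change differed by -0.68 for Cd36, -0.60 for Acsl4 and -0.34 for Lpl. The difference was 0.71 for Slc27a1, 0.51 for Eci1, 0.29 for Fabp1, 0.29 for Ech1, 0.26 for Acadvl, 0.26 for Etfb, 0.25 for Crat and 0.23 for Acat1. Pull-down minus polyA, it was -0.13 for Cd36, -0.17 for Acsl4 and 0.25 for Slc27a1, and of the opposite sign to digestion for Lpl (0.12), Acat1 (-0.14), Hadha (-0.11) and Cpt1a (-0.02). The other members called were Slc27a5, Cpt1a, Cpt2 and Hadha. Fabp1 (edgeR adjusted p = 0.0491) and Etfb lost their call with DESeq2, and Cpt1a and Slc27a5 with no filter.

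Fast against slow ramps called 0 of 41 genes by edgeR (background 0.00657% higher and 0.0263% lower of 15230 genes), with 1 at an unadjusted p under 0.05 and 0 called by DESeq2. Log2 fold changes ran from -0.09 to 0.16. Within polyA libraries alone 0 were called, with 12 at an unadjusted p under 0.05. The 2 batches of unselected libraries also gave 0 of 41 called by edgeR (0.216% higher and 0.15% lower of 10642 genes), with 3 at an unadjusted p under 0.05 (Hadhb, Acaa1a and Acaa1b) and 0 by DESeq2, over a range of -0.16 to 0.14.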

How the data were processed

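RNA-seq was measured in 34 libraries, 33 of liver and 1 of heart, all from 1 mouse. The deposited values are estimated counts per gene, which the authors made with Salmon 1.9.0 on GRCm38, with UMI-tools 1.1.1 and R 4.4.0 also named, per the submitters' processing notes. The transcript set is not given in the sources used here.

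Estimated counts were rounded to whole numbers (10.5% of values were not whole). Gene names, lengths and GC came from GENCODE M21 principal transcripts, with 50896 of 51368 genes matched. Tests used edgeR 4.0.16 in R 4.3.3 with TMM, filterByExpr, quasi-likelihood tests and Benjamini-Hochberg adjustment over all genes tested. Heart was compared with the batch 1 unselected liver libraries. Methods were compared with unselected libraries of their batch in a fit over the 33 liver libraries with ramp and length as covariates, which estimates 1 spread for all. Fragment length was tested within each method with ramp as a covariate. Levels are CPM of the TMM-scaled library size of the liver fit. Those of the heart fit were multiplied by 4.052, the constant that puts its 3 liver libraries on the liver fit's scale. Replicates of unselected groups differed by more than sampling noise, and none was merged.

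Alternatives were DESeq2 1.42.0, other scaling, no filter, other thresholds, other sample sets and left-out libraries. The scripts were tested on simulated data. Genes named with values were the isoform sets, up to 8 called members with the largest change in each direction, and the 3 most abundant members; of the other pathway genes, up to 4 (heart) or 2 per direction. Additional members were described after their values were seen. Members and lists were chosen with earlier results of these data known. Intervals, at the 95% level, cover counting error only, and the floor leaves out that of the heart library.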

Additional observations from a re-analysis of the deposited data

Results flagged for a closer look

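Of 123 groups of libraries checked (41 genes in 3 methods), 20 (16.3%) had 1 library far from the others, where chance gives about 1 in 20. In 19 of them it was the pull-down library with slow ramp and long fragments, which held 1.13 M counts. Its values were lowest for Acsl1 at 632.4 CPM, Acsl3 at 8.17, Acsl5 at 184.6, Slc25a20 at 56.37, Acadvl at 249.2, Acadl at 60.46, Acadm at 140.5, Hadhb at 107.8 and Acaa2 at 491.8. It was also lowest for Decr1 at 76.8 CPM, Ehhadh at 173.2, Decr2 at 120.1, Eci2 at 120.9, Etfa at 70.26, Etfdh at 128.3, Oxct1 at 1.634 and Acat1 at 199.4. Cpt1b at 4.902 CPM and Etfb at 153.6 were highest there. The remaining case was Slc27a1, highest at 7.072 CPM in the digestion library with medium ramp and long fragments.

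The long against short change differed among methods for 15 of 41 genes (36.6%) by the interaction test of edgeR. Over all 15442 genes tested the share was 31%. The single differences below were not tested on their own. Digestion minus polyA, on the log2 scale, the difference was -0.68 for Cd36, -0.60 for Acsl4 and -0.34 for Lpl. It was 0.71 for Slc27a1, 0.51 for Eci1, 0.29 for Fabp1, 0.29 for Ech1, 0.26 for Acadvl, 0.26 for Etfb and 0.25 for Crat. Smaller differences were 0.23 for Acat1, 0.22 for Cpt2, 0.19 for Slc27a5, 0.15 for Cpt1a and 0.15 for Hadha.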

How the results depend on the processing

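With a 2-fold minimum added, 1 gene was called for polyA, 0 for pull-down and 1 for digestion against unselected RNA. Over the whole table these fits called 2121, 805 and 363 genes. Digestion against pull-down then called 2 (1743 of all genes) and polyA against digestion 7 (3362). Long against short fragments called 0 in polyA, pull-down and digestion (590, 250 and 203 of all genes), and the interaction 0 (319). Against unselected RNA, pull-down called 21 with totals outside rRNA (4856 of all genes) and 14 when only the groups compared were fitted (2809). Digestion called 16 with DESeq2, 41 with library totals, 14 without the shallow pull-down library and 18 with only its own groups. Those fits called 2405, 15143, 2718 and 3269 of all genes. Without 1 unselected library it called 5 to 8 (1303 to 1635 of all genes). Long against short fragments in pull-down called 11 with DESeq2, 16 with library totals and 23 without the shallow library. Those fits called 1339, 2496 and 5398 of all genes, against 877 in the main fit. Without 1 ramp it called 0 to 18 (26 to 4597 of all genes). In digestion 8 were called with DESeq2 (963 of all genes) and 8 to 11 without 1 ramp (1584 to 2075). The interaction called 30 with library totals (6799 of all genes) and 26 without the shallow library (6208).

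Library totals changed the sign of 17 called genes in the 3 comparisons with unselected RNA, each beside the higher median of all genes given above. They changed that of 22 called genes in digestion against pull-down and 3 in polyA against digestion, where totals outside rRNA changed 7 and 3, and 1 in pull-down against unselected RNA. In polyA these were Oxct1 at 1.80, Acsl4 at 1.91, Ppara at 2.12 and Cd36 at 2.22. Pull-down had Etfa at 1.46, Acsl4 at 1.58, Acadl at 1.75, Lpl at 1.86 and Ppara at 2.05. Digestion had Fabp1 at 0.48, Fabp4 at 1.89, Etfa at 1.89, Etfb at 2.32, Acat1 at 2.42, Hadhb at 2.46, Acadvl at 2.48 and Decr1 at 2.51.

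Replicate numbers did not pair the unselected libraries of the 2 batches (correlations 0.001, -0.048 and -0.071), and a fit with the replicate block called 0 members, as without it.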
